A study of Mus musculus with 23 samples.

Results

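A set of 10 genes of the interleukin-1 (IL-1) and NF-kappaB pathway were read across 23 mouse RNA-seq libraries, as 1 estimated read count per gene and library. The genes were chosen by name and all 10 were found among the 35523 genes summed. They are the ligands Il1a and Il1b, the antagonist Il1rn, the receptor Il1r1, the NF-kappaB subunits Nfkb1, Nfkb2 and Relb, and Nfkbia, Tnfaip3 and Birc3, which are both regulators and known targets of NF-kappaB. All but Il1b had enough counts to be tested, so counts of members tested are out of 9.

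IL-1 alpha and IL-1 beta bind the same receptor, IL1R1, which signals only with its accessory protein IL1RAP and the adaptor MYD88, and the antagonist IL1RN occupies the receptor without a signal. Downstream, the IKK kinases remove inhibitors such as the product of Nfkbia from NF-kappaB dimers, which then enter the nucleus and switch on cytokine genes together with their own inhibitors. In pancreatic tumours, IL-1 from tumour cells is a known inducer of an inflammatory, cytokine-secreting state in fibroblasts.

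The libraries came from co-cultures of pancreatic stellate cells (PSCs), the cells of the pancreas that can give rise to fibroblasts, with pancreatic tumour organoids. Both shared Matrigel for 3.5 days in a medium described as reduced/control, and flow sorting then gave a PSC fraction (12 libraries) and an organoid fraction (11 libraries). PSCs were Egfr wild type (WT; PSC4 Rosa and PSC5 Rosa) or Egfr knockout (KO; clones A3 and B4 of PSC4, clones C5 and D4 of PSC5), and no edit is given for the organoid lines T6-LOH, T12-LOH and T69A. The co-cultures were T6-LOH with PSC4 lines, T6-LOH with PSC5 lines, T12-LOH with PSC4 lines and T69A with PSC4 lines. There were 4 WT and 8 KO PSC libraries, and among organoid libraries 4 had WT and 7 had KO PSCs as partners. Each KO line is 1 clone, PSC5 lines were grown with T6-LOH only, and a PSC line gave up to 3 libraries, 1 per organoid line. Each combination of organoid line and PSC line gave at most 1 library per fraction, with no repeat culture. The p-values thus measure the spread between libraries of different line combinations, not between repeats. Libraries are named by the numbers in their labels, and fractions of a culture were matched by organoid line and PSC line, which left PSC library 18 (T69A with clone A3) without a partner.

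Depth ran from 21823084 to 34828131 estimated counts per library, and mitochondrial genes took 1.95% to 4.94%. Egfr lay between 278 and 419.5 CPM (counts scaled to library size by TMM) in WT PSCs and between 57.4 and 345 in KO PSCs, so the KO libraries still held Egfr RNA, and the difference (log2 -1.15, SE 0.345) had an edgeR adjusted p of 0.225. The sort matched its labels in the marker genes: Epcam stood at 407 to 1133 CPM in organoids and 0.365 to 3.43 in PSCs, and Col1a1 at 3081 to 8943 CPM in PSCs and 0.353 to 11.7 in organoids. Immune cells make much of the IL-1 in tissue, and 18 immune and myeloid markers were therefore read too. Tyrobp was at 0 in all 23 libraries, Ptprc reached 1.36 CPM and Adgre1 0.0858 CPM, while Mrc1 and Cd14 reached 223 and 95.3 CPM. The summed immune list lay at 178 to 349 CPM in organoids and 23.9 to 90.3 in PSCs, and the part of such cells in the results was not tested.

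Nfkb2, Nfkbia and Tnfaip3 carry a match to the NF-kappaB consensus just before their transcription start, and those stretches are shown to let the letters be read beside the values of these genes. No test here ties a match to a change in level. The consensus is the 10-base NF-kappaB motif, searched on both strands in the 250 bases before each start. Each line gives the 130 bases before the first listed start, 5′ to 3′ on the gene's strand, from RefSeq promoters of build GRCm38.p6, with matches in capitals. In Nfkb2 (chr19:46304607-46304736, plus strand) 2 overlapping matches form the first run of capitals. The Nfkbia window is chr12:55492648-55492777 (minus strand), and that of Tnfaip3 is chr10:19015411-19015540 (minus strand). The last pair of lines, Birc3 (chr9:7873171-7873300, minus strand) and Il1a (chr2:129309973-129310102, minus strand), held no match and are given for comparison.
Nfkb2: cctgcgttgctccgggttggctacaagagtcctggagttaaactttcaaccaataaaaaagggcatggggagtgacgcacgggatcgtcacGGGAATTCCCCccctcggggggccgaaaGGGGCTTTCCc
Nfkbia: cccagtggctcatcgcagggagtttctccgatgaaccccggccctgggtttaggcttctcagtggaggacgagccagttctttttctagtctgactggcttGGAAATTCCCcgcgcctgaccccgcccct
Tnfaip3: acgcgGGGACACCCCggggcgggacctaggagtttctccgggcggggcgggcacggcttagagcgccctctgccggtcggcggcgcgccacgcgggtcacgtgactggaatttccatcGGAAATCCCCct
Birc3: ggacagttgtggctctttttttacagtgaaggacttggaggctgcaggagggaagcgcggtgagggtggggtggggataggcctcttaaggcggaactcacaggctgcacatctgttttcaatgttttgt
Il1a: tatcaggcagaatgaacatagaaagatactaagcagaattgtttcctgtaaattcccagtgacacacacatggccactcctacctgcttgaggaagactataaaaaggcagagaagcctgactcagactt

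The table held 14 promoters of 8 of the 10 genes. At least 1 match was present in 4 of the 8 genes, namely Nfkb2, Nfkbia, Tnfaip3 and the second listed start of Il1r1, and 4.46% of all 27025 genes in the table held one. A match is a description of letters and says nothing of binding in these cells.

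Il1a was an organoid transcript in every culture. With T12-LOH it stood at 425 CPM next to PSC4 Rosa (organoid library 10), 319 next to A3 (library 11) and 445 next to B4 (library 12). With T69A it stood at 188.5 CPM next to PSC4 Rosa (library 2) and 145 next to B4 (library 4). In the 6 T6-LOH libraries it ran from 55.7 to 141 CPM with a median of 82.5. Every T12-LOH library lay above every T69A library, and both T69A libraries lay above all T6-LOH libraries.

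In PSC fractions Il1a was 15.1 to 297 times lower than in the organoids of the same culture, in 11 of 11 cultures. PSC levels were 12.97, 21.1 and 5.91 CPM with T12-LOH (libraries 23, 24 and 25), 7.78, 8.06 and 4.34 CPM with T69A (libraries 17, 18 and 19), and 0.244 to 2.02 CPM in the 6 libraries grown with T6-LOH. PSCs grown with T6-LOH thus lay lowest, without overlap, while those grown with T12-LOH and T69A overlapped. The fold between fractions was log2 -5.77 (SE 0.39, edgeR adjusted p = 2.07e-08). In this comparison 75.3% of all 14058 genes tested were called, which is the background for every count between fractions below.

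Organoid cells left in the PSC fraction would also bring Il1a, so its share was set beside that of epithelial markers. The median epithelial marker in a PSC library stood at 0.0655% to 0.704% of its level in the partner organoids, and Il1a at 0.336% to 6.62%. Il1a was above the marker median in 12 of 12 PSC libraries (library 18 was set against the mean of both T69A organoid libraries), and above the highest single marker in 6 of 12 libraries. The marker share was 0.159% to 0.271% with T12-LOH, where Il1a was highest, and 0.549% to 0.704% with T69A. How much of the PSC value came from carried-over cells was not tested.

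**Figure D1:**
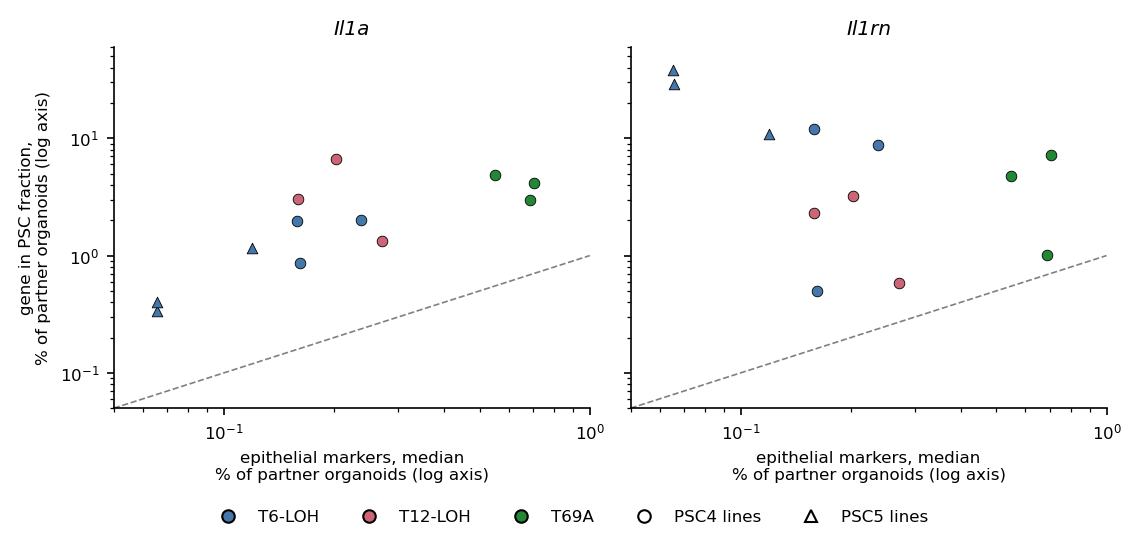
Level of Il1a (left) and Il1rn (right) in each PSC library as a percent of the partner organoids, against the median epithelial marker on the same scale (log axes, 1 point per PSC library, colours for organoid line, circles for PSC4 and triangles for PSC5 lines). Points on the dashed line would match the marker median, and all 12 Il1a points and all 12 Il1rn points lie above it.

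Il1b, the second agonist and the classic product of activated myeloid cells, was at or near 0 in both fractions. Its highest estimated count was 5 (PSC library 17), 9 of 23 libraries had 0, and it did not pass the filter on low counts in any fit. At 3 counts or fewer a level cannot be told from 0, so no fold is given.

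Il1rn, which blocks the receptor, was the most abundant of the 10 genes per transcript length in organoids, with a median of 479.5 TPM (a unit that adjusts for transcript length and depth). It stood at 646 to 760 CPM in T12-LOH organoids, 369 and 388 in T69A and 294 to 339 in T6-LOH. The order of lines matched that of Il1a with no overlap, and how many of all genes share it was not counted. The ratio of Il1rn to Il1a TPM in organoids ran from 2.83 (library 10) to 9.76 (library 7), with antagonist RNA above agonist RNA in all 11 libraries.

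In PSCs Il1rn differed widely between PSC lines. Clone B4 held 1.70, 3.73 and 4.44 CPM (libraries 22, 19 and 25) and clone A3 held 40.0, 18.2 and 20.7 CPM with the same 3 organoid lines. PSC4 Rosa held 28.4, 27.7 and 15.95 CPM, while the PSC5 lines held 84.9 (Rosa), 33.9 (C5) and 119 CPM (D4). All B4 libraries lay below all other PSC libraries. Between fractions Il1rn was lower in PSCs by 4.34 on the log2 scale (SE 0.67, adjusted p = 6.06e-05), and PSC levels were 0.502% to 38.1% of the partner organoids.

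Il1r1, the signalling receptor, was expressed on both sides at similar levels. PSC libraries ran from 50.2 to 162 CPM (median 117) and organoid libraries from 49.2 to 114 CPM (median 89.5). PSCs were higher in 9 of 11 cultures, by up to 2.92 times with T12-LOH, and lower in C5 and D4. The mean difference of log2 0.44 (SE 0.20) had an adjusted p of 0.0663, and it passed without the culture of either PSC5 clone (log2 0.56, adjusted p = 0.015 without C5; log2 0.54, adjusted p = 0.0272 without D4) and by DESeq2 (adjusted p = 0.0372).

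The accessory chain needed for the signal was split more sharply than Il1r1. Il1rap stood at 51.8 to 124 CPM in PSCs, at 17.6 to 20.8 CPM in T12-LOH organoids, at 1.92 and 2.63 in T69A and at 0.707 to 1.56 CPM in T6-LOH organoids. The decoy receptor Il1r2 stayed at 1.86 CPM or less in all 23 libraries. Across the list of IL-1 receptors and signalling adaptors, 6 of 17 genes tested were higher in PSCs and 5 lower (median log2 0.08, all genes -0.03). Irak3, a brake on receptor signalling, was higher in PSCs by log2 6.12 (SE 0.47, adjusted p = 6.28e-08), and Sigirr, an inhibitory receptor of the family, was lower by 3.89 on that scale (SE 0.21, adjusted p = 1.56e-09).

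The other IL-1 family ligands leaned to the organoids. Of 10 ligand and release genes tested, 8 were lower in PSCs and 2 higher (median log2 -1.80). Il36a was lower by 7.09 (SE 0.52, adjusted p = 4e-08), but stood at only 0.529 to 6.43 CPM in organoids. Il18 was lower by 4.18 (SE 0.44, adjusted p = 1.43e-06). Il33, an alarmin related to IL-1, stood at 333 to 1084 CPM in organoids and at 5.26 to 501 CPM in PSCs. Tnf, another input to NF-kappaB, followed Il1a, with 5.43 to 108 CPM in organoids and 0.265 to 1.59 CPM in PSCs (log2 -5.57, SE 0.36, adjusted p = 1.18e-08). The list of other inputs as a whole was split, with 6 of 12 tested higher in PSCs and 5 lower.

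Nfkb1, Nfkb2 and Relb ran the other way from Il1a. The list of 7 other NF-kappaB subunits and inhibitors was split, with 4 higher in PSCs and 3 lower (median log2 0.66). Nfkb1, which encodes p105 and p50, stood at 131 to 298 CPM in PSCs and 62.0 to 82.4 CPM in organoids. Nfkb2, which encodes p100 and p52 of the non-canonical branch, stood at 178 to 343 CPM in PSCs and 64.2 to 155 CPM in organoids. Relb, the partner of p52, stood at 71.9 to 114 CPM in PSCs and 14.7 to 42.1 CPM in organoids. None of the 3 subunits overlapped between fractions, and all 3 were higher in PSCs in 11 of 11 cultures. How many of all genes separate the fractions in this way was not counted, here or for Il1a and Nfkbia. The separation is therefore not read as particular to these genes. The log2 differences were 1.42 for Nfkb1 (SE 0.11, adjusted p = 8.39e-08), 1.43 for Nfkb2 (SE 0.11, adjusted p = 8.27e-08) and 2.14 for Relb (SE 0.13, adjusted p = 6.02e-09).

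Among the feedback genes, Nfkbia, which encodes the inhibitor that holds NF-kappaB in the cytoplasm, stood at 271 to 461 CPM in PSCs and 84.5 to 145 CPM in organoids (log2 1.66, SE 0.10, adjusted p = 3.51e-09), with no overlap. Tnfaip3 encodes A20, which ends signalling to the IKK kinases. It stood at 94.4 to 599.6 CPM in PSCs and 46.8 to 268 in organoids, and was higher in PSCs in 8 of 11 cultures (log2 0.81, SE 0.30, adjusted p = 0.027). The exceptions were T12-LOH with PSC4 Rosa and A3, and T69A with PSC4 Rosa. The Tnfaip3 call was lost without any one of 5 cultures (T6-LOH with PSC4 Rosa, A3, B4 or PSC5 D4, and T69A with B4; adjusted p 0.0558 to 0.0614) and in the 4 WT cultures alone (log2 0.19, adjusted p = 0.738). Birc3, an E3 ligase of the receptor complexes, stood at 19.8 to 44.9 CPM in PSCs and 14.2 to 55.6 in organoids and did not pass (log2 0.40, SE 0.27, adjusted p = 0.199).

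In all, 5 of the 9 members tested were higher in PSCs and 2 lower (median log2 0.81, all genes -0.03). With 75.3% of all genes called, that share is near the background, and the size and direction carry the description. Of 28 NF-kappaB target genes, 19 were higher in PSCs and 6 lower (median log2 3.75). Ccl7, a monocyte chemokine, stood at 79.0 to 134 CPM in PSCs and at 0.128 CPM or less in organoids, and Mmp3, a matrix protease, at 85.8 to 2064 CPM against 2.27 or less. Bcl2l1, a survival gene on the same list, was lower in PSCs by 2.37 (SE 0.09, adjusted p = 9.69e-11). Among regulators of the IKK complex, 7 of 12 were higher and 2 lower, led by Map3k14, the kinase of the non-canonical branch (log2 1.89, SE 0.15, adjusted p = 7.28e-08). In sorted bulk RNA, fewer cells with a transcript and less of it in each cell cannot be told apart.

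**Figure D2:**
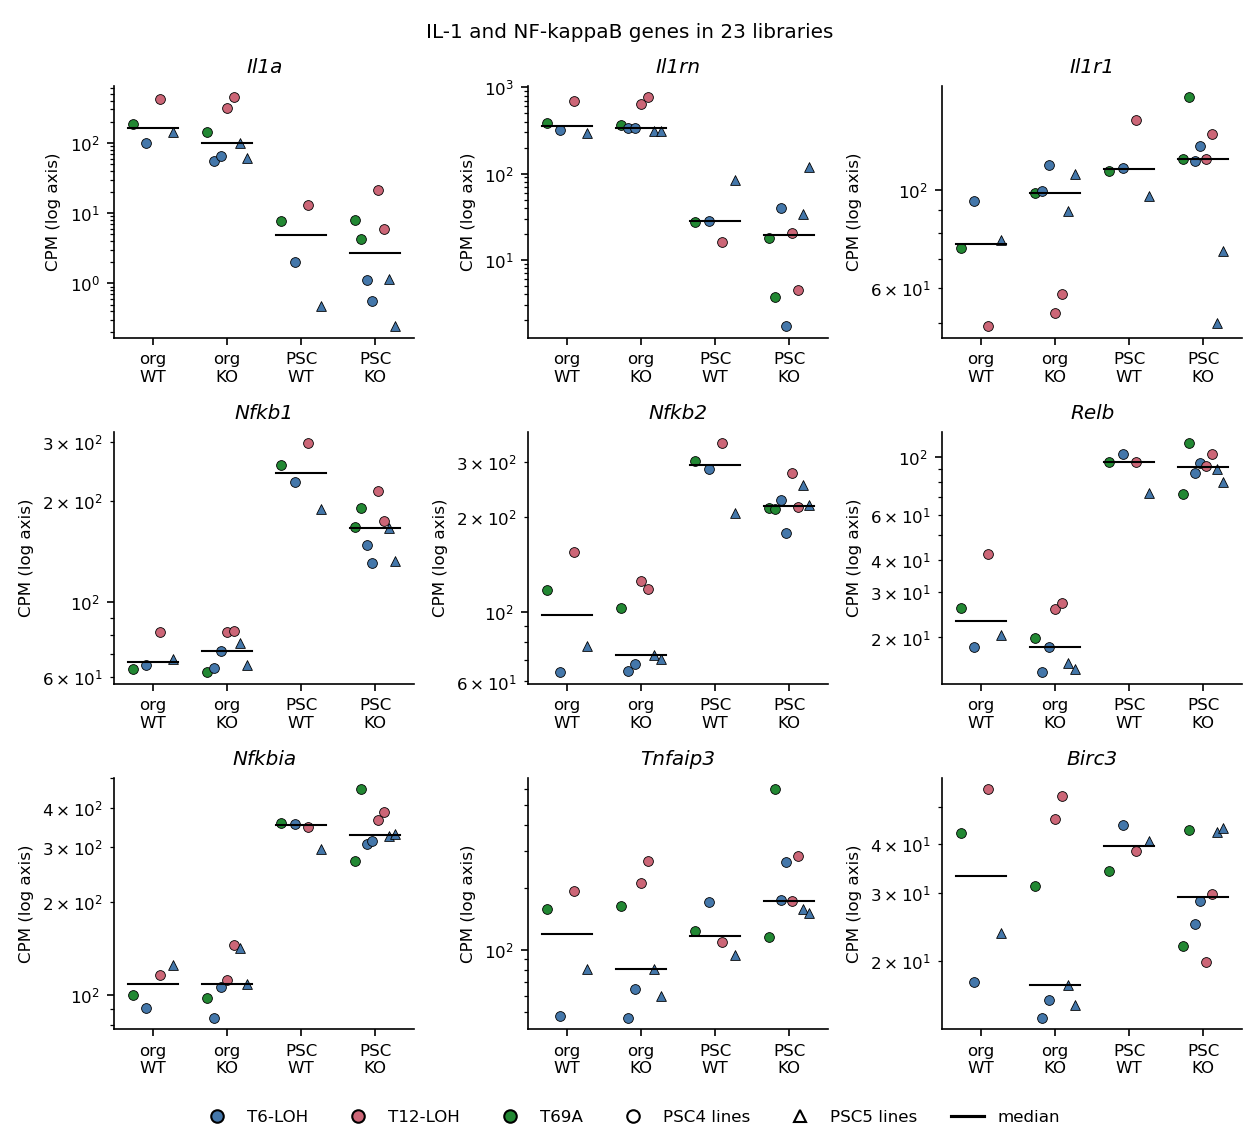
CPM of 9 members in each of the 23 libraries (log axis), by fraction and PSC genotype, with colours for organoid line, circles for cultures with PSC4 lines, triangles for PSC5 lines and a bar at the group median. Il1a and Il1rn are high in organoids, Nfkb1, Nfkb2, Relb and Nfkbia are high in PSCs without overlap, and T12-LOH organoids (red) lie highest in Il1a, Il1rn and Tnfaip3 among organoid libraries.

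Compared per length in TPM, the order of median levels in PSCs was Nfkbia (437), Nfkb2 (129), Nfkb1 (100.3), Relb (79.9), Tnfaip3 (67.8), Il1r1 (49.1), Birc3 (46.0), Il1rn (32.7), Il1a (3.13) and Il1b (0.0205). Nfkbia, at 360 to 626 TPM, stood clear of Nfkb2, at 103 to 187, and every later neighbour in the order overlapped the one before it. In organoids the order was Il1rn (479.5), Nfkbia (120.5), Il1a (111), Nfkb2 (40.1), Il1r1 (32.0), Nfkb1 (31.0), Tnfaip3 (29.6), Birc3 (27.0), Relb (14.8) and Il1b (0.0418). Il1rn at 417 TPM or more did not overlap Nfkbia at 166 or less, Relb at 10.9 or more did not overlap Il1b at 0.158 or less, and the neighbours between them overlapped.

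Organoid lines differed in most of these genes. T12-LOH and T6-LOH organoids, both grown with PSC4 lines (3 libraries each), were compared in the fit of the 11 organoid libraries, where 63.1% of 13939 genes were called. Of 9 members tested, 8 were higher in T12-LOH and 1 lower (median log2 1.02, all genes 0.00). Il1a was higher by log2 2.48 (SE 0.25, adjusted p = 0.000105), Tnfaip3 by 2.08 (SE 0.18, adjusted p = 2.01e-05), Birc3 by 1.72 (SE 0.10, adjusted p = 1.54e-08) and Il1rn by 1.09 (SE 0.07, adjusted p = 2.25e-08). Nfkb2 (1.02), Relb (0.87), Nfkbia (0.42) and Nfkb1 (0.31) followed, with adjusted p from 1.42e-07 to 0.0174. The Nfkbia call was lost without library 6, 7 or 12 (log2 0.29 to 0.40, adjusted p 0.0558 to 0.0714).

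Il1r1 was the 1 member lower in T12-LOH, at 49.2, 52.7 and 58.3 CPM (libraries 10, 11 and 12) against 94.2, 99.5 and 114 CPM in T6-LOH with PSC4 (libraries 6, 7 and 8). The difference was log2 -0.93 (SE 0.09, adjusted p = 1.43e-06), opposite in sign to that of Il1rap (log2 4.33, SE 0.21, adjusted p = 4.36e-09). Tnfaip3 showed the line order plainly, with 192 to 268 CPM in T12-LOH, 158 and 164 in T69A and 46.8 to 81.2 in the 6 T6-LOH libraries. Birc3 had the same order, with 46.4 to 55.6 CPM in T12-LOH, 31.2 and 42.7 in T69A and 14.2 to 23.6 in T6-LOH. Nfkb2 shared it too, with 118.5 to 154.5, 103.1 to 117.4 and 64.2 to 77.6 CPM. Nfkb1 broke it, with T69A lowest (61.95 and 63.41 CPM against 63.56 to 75.54 in T6-LOH). Relb and Nfkbia in T69A overlapped T6-LOH. How many of all genes share the order was not counted, so it is not read as particular to these genes.

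Of 23 NF-kappaB targets tested in organoids, 17 were higher in T12-LOH than in T6-LOH and 3 lower (median log2 1.75), against 63.1% of all genes called. Of 7 NF-kappaB subunits and inhibitors beside the members, 6 were higher and 0 lower (median log2 0.78). The other pathway lists went both ways. Of 17 receptors and adaptors, 8 were higher and 7 lower (median log2 -0.10), and of 11 ligand and release genes, 6 and 3. Of 12 IKK regulators, 6 were higher and 3 lower, and of 13 other NF-kappaB inputs, 7 and 5. Csf3, a granulocyte growth factor, was at 41.4, 53.3 and 59.3 CPM in T12-LOH and 3.03 to 6.98 in T6-LOH (log2 3.63, SE 0.19, adjusted p = 8.71e-08). The chemokine Cxcl10 was higher by 4.45 (SE 0.33, adjusted p = 4.51e-07) and Csf1 by 2.10 (SE 0.16, adjusted p = 5.86e-07), while Sod2 was lower by 0.67 (SE 0.06, adjusted p = 8.12e-07). Tnf was higher by 3.64 (SE 0.28, adjusted p = 1.49e-05). Casp1, the protease that matures IL-1 beta and IL-18, was at 5.92 to 8.49 CPM in T6-LOH and at 0.0427 or less in T12-LOH and T69A. Il1rl2, the IL-36 receptor, stood at 37.8 to 51.3 CPM in T6-LOH and at 0.68 or less in the other lines. Vim, also a fibroblast marker, was higher in T12-LOH (log2 3.58, SE 0.40, adjusted p = 5.69e-06), and the median fibroblast marker in T12-LOH libraries stood at 0.0462% to 0.0899% of its PSC level against 0.00737% to 0.0318% in T6-LOH with PSC4. In this comparison 5 of 10 fibroblast markers were higher and 0 lower, and 1 of 8 immune markers was higher and 4 lower. The part of PSC carry-over or of other cells in these differences was not tested.

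T69A against T6-LOH organoids gave 6 of 9 members higher and 0 lower, where 55.3% of genes were called (median log2 0.35, all genes 0.01). The log2 differences were 1.62 for Tnfaip3 (SE 0.20, adjusted p = 0.000214), 1.16 for Birc3 (SE 0.11, adjusted p = 2.33e-06), 1.12 for Il1a (SE 0.27, adjusted p = 0.0103), 0.72 for Nfkb2, 0.35 for Relb and 0.20 for Il1rn. T69A had 2 organoid libraries. Without library 4 the calls fell to 3, with Il1a at log2 1.00 (adjusted p = 0.0827), Relb at 0.32 (adjusted p = 0.176) and Il1rn at 0.26 (adjusted p = 0.054) no longer called, and the lone T69A library is then assumed to vary like the others. The Relb and Il1rn calls were also lost without library 2, 6 or 7 (adjusted p 0.0636 to 0.271). Of 23 NF-kappaB targets, 9 were higher in T69A and 6 lower (median log2 0.34). Fibroblast markers moved in the same comparison, with 6 of 10 higher and 0 lower (median log2 1.68), among them Col1a1 (log2 2.72, SE 0.41, adjusted p = 0.000157). The median fibroblast marker stood at 0.171% and 0.0539% of its PSC level in the T69A libraries. Of 8 immune markers 1 was higher and 5 lower, and the part of other cells in the member calls was not tested.

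**Figure D3:**
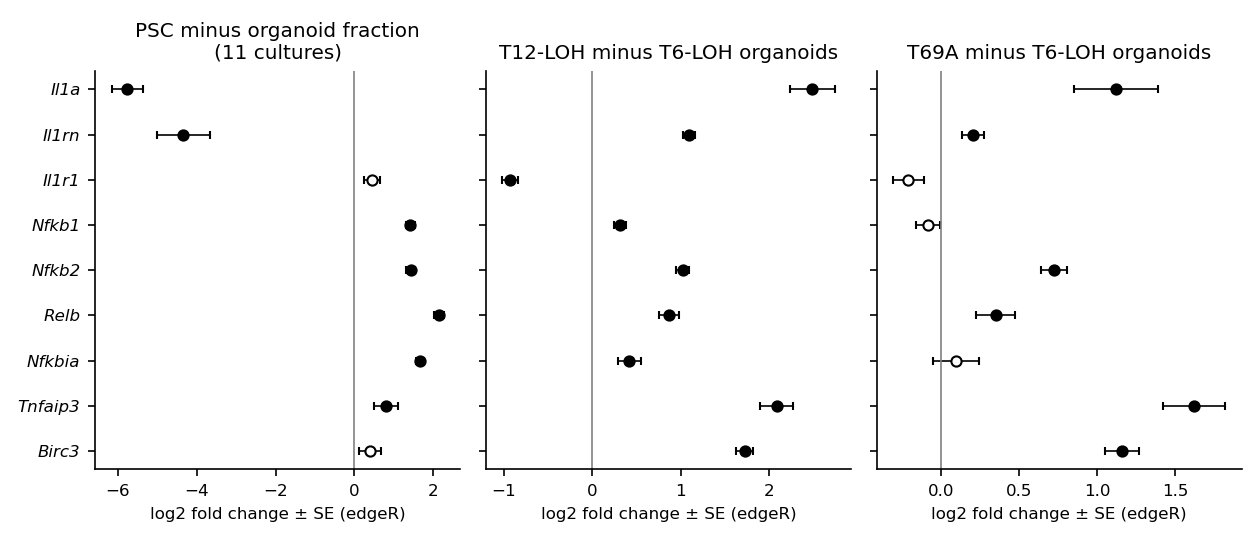
log2 fold changes with SE from edgeR for 9 members between fractions (left), T12-LOH and T6-LOH organoids (middle) and T69A and T6-LOH organoids (right). Filled points passed an adjusted p of 0.05 and open points did not, and each panel has its own horizontal scale. Il1a and Il1rn lie left of 0 in the first panel and right of 0 in the others.

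PSCs were compared by the organoid line they grew with, to read the response side. With T12-LOH against T6-LOH (PSC4 lines, 3 libraries each), 0.822% of 14107 genes were called and 0 of 9 members. Il1a was nearest, at log2 3.52 (SE 0.70, adjusted p = 0.0564), with 5.91 to 21.1 CPM against 0.555 to 2.02 and no overlap. It passed without PSC library 25 (log2 3.84, adjusted p = 0.0443) or 27 (log2 3.58, adjusted p = 0.0317). Nfkb1 had log2 0.47 (SE 0.13, unadjusted p = 0.00598, adjusted p = 0.141), with 298, 215 and 174 CPM in Rosa, A3 and B4 beside T12-LOH and 228, 148 and 131 CPM beside T6-LOH, so that each line held more Nfkb1 beside T12-LOH.

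NF-kappaB targets gave 3 of 28 higher and 0 lower in PSCs grown with T12-LOH (median log2 1.06, all genes 0.00). Csf3 stood at 50.6, 52.7 and 33.8 CPM beside T12-LOH (Rosa, A3 and B4) and at 8.77, 3.36 and 2.998 beside T6-LOH (log2 3.33, SE 0.49, adjusted p = 0.0227). Saa3, an acute-phase gene that marks inflammatory fibroblasts, stood at 11490, 11220 and 6986 CPM beside T12-LOH and at 3252, 1587 and 603.7 beside T6-LOH (log2 2.64, SE 0.45, adjusted p = 0.0329). Mmp13, a collagenase, stood at 1055, 1515 and 418 CPM against 204, 78.3 and 72.3 (log2 3.24, SE 0.55, adjusted p = 0.0329). Csf2 had log2 2.74 (SE 0.52, adjusted p = 0.0512). None of the 3 called genes overlapped between the organoid lines, and in each of them all 3 PSC4 lines were higher beside T12-LOH. They were called on these same libraries, so this separation adds no support to the calls. How many of all genes separate in this way was not counted, here or for Il1a in PSCs. Csf3 and Mmp13 were also high in T12-LOH organoids (Mmp13 399 to 637 CPM), whereas Saa3 was at 3.22 CPM or less there. In the same comparison Cd14 was higher (log2 1.56, SE 0.23, adjusted p = 0.0227), the epithelial marker Krt19 lower (log2 -1.60, SE 0.29, adjusted p = 0.0427), and 1 of 23 fibroblast markers was lower (Fn1, log2 -1.58, SE 0.20, adjusted p = 0.0167).

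PSCs grown with T69A against T6-LOH gave 0 of 9 members by edgeR, with 0% of 14107 genes called (1089 at an unadjusted p under 0.05). Il1a had log2 2.47 (SE 0.68, unadjusted p = 0.00491, adjusted p = 0.436). Epithelial markers had a median log2 of 1.80 over 18 tested in this comparison, with a carry-over share of 0.549% to 0.704% against 0.159% to 0.237%, and their part in the Il1a value was not tested.

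In PSCs, Egfr KO against WT called 0.0638% of 14107 genes and 0 of 9 members (median log2 -0.30, all genes 0.01). DESeq2 called 1 member, Nfkb1, but over all genes it also called many more than edgeR (counts in the last section). By edgeR 3 members had an unadjusted p under 0.05, as did 1937 of the 14107 genes. Nfkb1 was at 228 CPM in PSC4 Rosa, 148 in A3 and 131 in B4 with T6-LOH. With T12-LOH it was at 298, 215 and 174 CPM in the same order, and with T69A at 257, 168 and 191. In PSC5 it was at 190 CPM in Rosa, 166 in C5 and 133 in D4. All 8 KO libraries lay below their own WT library (that of the same co-culture), at 57.3% to 87.5% of it. Only 4 WT libraries serve these 8, so the 8 comparisons are not independent. The groups overlapped when cultures were pooled (131 to 215 CPM in KO, 190 to 298 in WT). The difference was log2 -0.56 (SE 0.10, unadjusted p = 0.000251, adjusted p = 0.0935), and leaving out a library gave log2 -0.62 to -0.49 with adjusted p from 0.0641 to 0.549. When limma treated the PSC line as random, which allows for libraries of 1 clone (correlation 0.726), the adjusted p was 0.9995.

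Nfkb2 was lower in 6 of 8 KO libraries, all of PSC4, and higher in C5 and D4 (log2 -0.34, SE 0.14, adjusted p = 0.324). Tnfaip3 was above the own WT library in 7 of 8 KO libraries, at 93.6% to 484% of it (log2 0.88, SE 0.39, adjusted p = 0.359). The highest value was 599.6 CPM in B4 with T69A (library 19), and without it the difference was log2 0.54 (adjusted p = 0.402). Il1rn was lower in 5 of 8 KO libraries, at 5.99% to 141% of the own WT library (log2 -0.59, SE 0.74, adjusted p = 0.735), and the 3 lowest were those of clone B4. Birc3 was lower in 5 of 8 (log2 -0.36, adjusted p = 0.458) and Il1a in 5 of 8 (log2 -0.30, adjusted p = 0.796). Il1r1 and Relb were each lower in 4 and higher in 4 of the 8 KO libraries, and Nfkbia was higher in 5.

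The wider lists gave no call in KO PSCs. Of 28 NF-kappaB targets 0 passed (median log2 -0.34). Il6, the cytokine of inflammatory fibroblasts, had log2 -0.98 (SE 0.31, adjusted p = 0.246) and Saa3 -0.82 (SE 0.31, adjusted p = 0.303). Of 16 receptors and adaptors 0 passed, with Il1rl1, the IL-33 receptor, at log2 -2.03 (SE 0.48, adjusted p = 0.148). Of 12 IKK regulators, 6 other subunits and inhibitors, 9 ligand and release genes and 12 other inputs, 0 passed in each list.

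**Figure D4:**
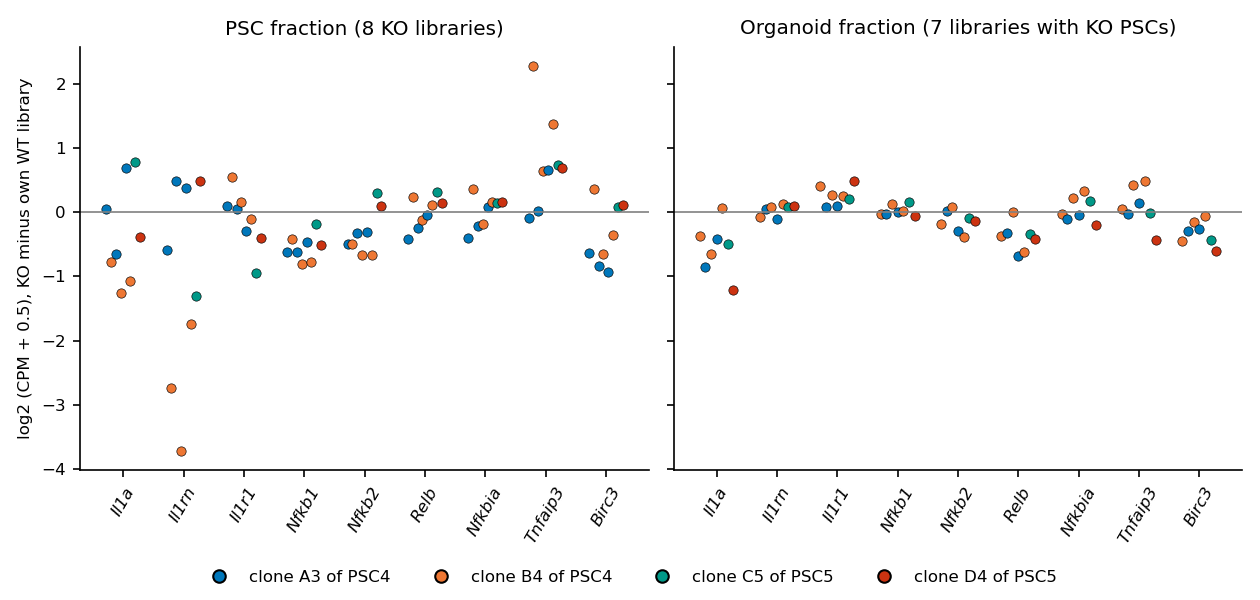
log2(CPM + 0.5) of each KO library minus the WT library of its own co-culture, for 9 members in the PSC fraction (left, 8 libraries) and in organoids grown with KO PSCs (right, 7 libraries), coloured by clone. Nfkb1 lies below 0 in all 8 PSC libraries, Il1rn falls far below 0 in the 3 libraries of clone B4, and Birc3 and Relb lie below 0 in all 7 organoid libraries.

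The KO clones differed among themselves. Clone B4 against clone A3, 3 PSC libraries each with organoid line as a block, called 45.2% of 13595 genes and 3 of 9 members (1 higher, 2 lower; median log2 0.23, all genes 0.01). Il1rn was lower in B4 by 2.97 (SE 0.55, adjusted p = 0.0189), Il1a by 1.34 (SE 0.24, adjusted p = 0.00615), and Birc3 was higher by 0.57 (SE 0.16, adjusted p = 0.0301). Il1a was 8.06, 1.10 and 21.1 CPM in A3 and 4.34, 0.555 and 5.91 in B4 (with T69A, T6-LOH and T12-LOH), lower in B4 each time. Without library 18, 19, 24 or 25 the Il1rn call was lost (log2 -3.40 to -3.30, adjusted p 0.0728 to 0.0933), as was that of Birc3 (log2 0.37 to 0.57, adjusted p 0.0891 to 0.102). Tnfaip3 had log2 1.20 (SE 0.42, adjusted p = 0.0891). Among NF-kappaB targets 8 of 28 were higher in B4 and 7 lower, with Mmp3 lower by 2.55 (SE 0.11, adjusted p = 0.000203). Il33 was lower by 3.52 (SE 0.38, adjusted p = 0.00477).

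PSC parents were compared next to T6-LOH. PSC5 against PSC4 lines called 0.454% of 14107 genes and 0 of 9 members. Il1r1 was nearest (log2 -0.72, SE 0.22, unadjusted p = 0.00939, adjusted p = 0.16). It stood at 96.9, 50.2 and 72.9 CPM in PSC5 (Rosa, C5 and D4). In PSC4 (Rosa, A3 and B4) it stood at 112, 116 and 126 CPM, without overlap. How many of all genes separate the parents in this way was not counted. The KO effect itself was compared between parents as an interaction, with 0% of 14107 genes called in PSCs (683 at an unadjusted p under 0.05 by edgeR) and 0 of 9 members. Nfkb2 had an interaction of log2 0.70 (SE 0.24, unadjusted p = 0.0184, adjusted p = 0.963) and Il1r1 of -0.72 (SE 0.31, unadjusted p = 0.0486, adjusted p = 0.985). In organoids the interaction called 0.0143% of 13939 genes and 0 of 9 members.

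In organoids, growth with KO in place of WT PSCs called 10.3% of 13939 genes and 3 of 9 members (median log2 0.02, all genes -0.01). Relb and Birc3 were lower and Il1r1 higher, each in 7 of 7 libraries when set against their own WT culture. Relb was at 42.1 CPM beside PSC4 Rosa and 25.9 and 27.2 beside A3 and B4 in T12-LOH, at 26.1 and 19.95 in T69A (Rosa and B4), at 18.4, 14.7 and 18.4 in T6-LOH with PSC4, and at 20.4, 15.98 and 15.1 in T6-LOH with PSC5 (Rosa, C5 and D4). Relb fell by 0.42 on the log2 scale (SE 0.09, adjusted p = 0.0144). Its level was 61.5% to 99.6% of the WT library, and it hardly differed in T6-LOH with B4. Birc3 was at 64.9% to 95.7% of its WT library (log2 -0.34, SE 0.07, adjusted p = 0.0179). Il1r1 was at 106% to 141% (log2 0.27, SE 0.07, adjusted p = 0.0308).

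The other members did not pass by edgeR: Nfkb2 had log2 -0.16 (SE 0.06, adjusted p = 0.0936), and Il1rn (0.02), Nfkb1 (0.02), Nfkbia (0.04) and Tnfaip3 (0.09) had adjusted p from 0.713 to 0.853.

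All 3 calls are small, and each was lost without some single library. Without WT library 2 or 14 no member was called by edgeR, without KO library 4 only Relb was (log2 -0.41, adjusted p = 0.0499), and without all T69A cultures only Relb was (adjusted p = 0.0492). Without library 10 Relb had log2 -0.31 (adjusted p = 0.0576), and without library 16 Il1r1 had log2 0.23 (adjusted p = 0.0513). Without library 2 the adjusted p was 0.0511 for Relb, 0.073 for Birc3 and 0.0984 for Il1r1. Il1a was lower in 6 of 7 libraries, at 42.8% to 105% of WT (log2 -0.54, SE 0.18, unadjusted p = 0.0219, adjusted p = 0.106). It stood at 141 CPM beside PSC5 Rosa and 100.3 and 60.4 beside C5 and D4, and at 101 beside PSC4 Rosa and 55.7 and 64.7 beside A3 and B4 in T6-LOH.

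Fibroblast markers in the organoid libraries were read beside the calls of Relb, Birc3 and Il1r1. With KO PSCs 4 of 10 markers tested were lower and 0 higher, against 10.3% of all genes called. They were Sparc, Col3a1, Vim and Col1a1, the last with log2 -1.45 (SE 0.28, adjusted p = 0.0128). The list summed to 34.2 to 462 CPM with KO and 63.1 to 554 with WT PSCs. The median fibroblast marker stood at 0.0416% of its PSC level with KO (0.00737% to 0.062%) and 0.0726% with WT PSCs (0.0318% to 0.171%). The highest single marker reached 0.241% (library 4) to 28.3% (library 10) of its PSC level. The sum is therefore not read as a measure of PSC RNA. The level in PSCs was 2.27 to 5.91 times that in organoids for Relb, 0.427 to 2.87 times for Birc3 and 0.561 to 2.92 times for Il1r1. The part of PSC RNA in these 3 calls was not tested. Of 23 NF-kappaB targets 4 were lower and 0 higher, where 10.3% of all 13939 genes were called. The 4 were Cxcl10 (log2 -1.30, SE 0.23, adjusted p = 0.0105), Lif (-0.55, SE 0.12, adjusted p = 0.0243), Saa3 (-2.37, SE 0.58, adjusted p = 0.0382) and Bcl2l1 (-0.14, SE 0.04, adjusted p = 0.0429). Saa3 in organoid libraries was at 11.5 CPM or less, against 604 to 11490 in PSCs, and the part of carry-over in these target calls was not tested.

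T6-LOH organoids grown with PSC5 against PSC4 lines gave 0 of 9 members, where 0.545% of 13939 genes were called. Nfkbia had log2 0.42 (SE 0.13, unadjusted p = 0.00941, adjusted p = 0.167), with 109 to 142 CPM against 84.5 to 106. Tnfaip3 had log2 0.49 (SE 0.18, adjusted p = 0.246), Birc3 0.23 (SE 0.10, adjusted p = 0.269) and Nfkb2 0.17 (SE 0.08, adjusted p = 0.297).

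Whether PSC levels followed the Il1a of their own organoids was read within the 6 T6-LOH cultures, since organoid lines form clusters. Of 7 relations none passed. The nearest was Nfkb1, with Pearson r = 0.775 (exact permutation p = 0.0806, adjusted p = 0.52) and Spearman rho = 0.714 (exact permutation p = 0.136, adjusted p = 0.953), and r was 0.867 without the 2 cultures farthest from the median. For Tnfaip3 r was -0.672 (exact permutation p = 0.149, adjusted p = 0.52) and rho -0.486 (exact permutation p = 0.356, adjusted p = 0.979), and r was -0.354 without those cultures. WT and KO cultures share these points.

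Likeness of pattern was described by Pearson r on log2(CPM + 0.5) over libraries, which share organoid or PSC lines and are not independent. Over the 11 organoid libraries the protein-coding genes most like Il1a, of 11333, were Crk (r = 0.992), Rap1b (0.991), Adam10 (0.99), Igsf23 (0.987) and Rap2b (0.985). Over the 12 PSC libraries those most like Il1r1, of 11514, were Myrf (0.916), Pcdhga7 (0.898), Arl6ip1 (0.896), 2510009E07Rik (0.894) and Rbm12b1 (0.89).

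The transcripts behind the gene sums were few for most members. Il1a came from 1 transcript. Il1rn-201 took a median of 54.9% of Il1rn in organoids and 54.0% in PSCs, and Il1rn-204 34.6% and 34.97%. Il1r1-202 took 98.1% in organoids and 94.4% in PSCs. The leading transcript of Nfkb2 differed between fractions, with Nfkb2-202 at 46.4% (39.2% to 54.0%) and Nfkb2-201 at 37.2% (26.5% to 41.0%) in PSCs, against 38.2% (28.8% to 47.3%) and 49.6% (37.7% to 57.4%) in organoids. These shares are a model's split of shared reads and overlapped between fractions, and they were not tested. Il1a, Il1b and Nfkb2 overlap genes on the other strand (Gm14023, Il1bos and Psd with AC114539.1), and with no source used here giving strandedness, reads of such pairs may not be told apart.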

How the data were processed

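Salmon output of 23 libraries was used. Per the labels, sorted cells were lysed in TRIzol and RNA was purified with PureLink. Per the submitters' processing notes, the authors quantified reads with Salmon 1.9.0 and named GRCm39 (mm39) as build. The deposited expected counts (NumReads, estimated counts per transcript) and TPM values were made by the authors with Salmon, per the file headers and those notes. Estimated counts were summed per gene through GENCODE M21 transcript IDs without version and rounded. Reads of unmatched transcripts (0.364% to 0.443% per library) were left out. Counts were tested with edgeR 4.0.16 (quasi-likelihood, TMM, expression filter, Benjamini-Hochberg, threshold 0.05) in R 4.3.3. Simulated data were used to check only the edgeR fits for KO in PSCs, KO in organoids and fraction. The other fits and steps were not checked in that way. PSC KO and organoid fits had co-culture as a block, the fraction fit had the culture as a block. CPM used 1 TMM scale over all libraries. The alternatives were DESeq2 1.42.0, limma 3.58.1, other normalization, no filter and leaving out libraries. SE is the log2 fold change over the root of F. Depth, 21823084 to 34828131 estimated counts, limits low genes such as Il1b. The rule for named genes was all members, of which the text gives those nearest the threshold where none was called, and up to 4 genes per list with the smallest p in a comparison. Il33, Il1rap and Il1r2 between fractions, and levels given with no test, were chosen after their values were seen. Members, lists and tests were chosen with earlier results of these data known.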

Additional observations from a re-analysis of the deposited data

Results flagged for a closer look

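In 4 of 36 groups of 4 to 8 libraries, 1 library stood far from the others by Dixon's criterion. Chance meets it in about 1 in 20 groups of like, normally spread libraries. These groups pool organoid lines, PSC parents and clones, so that rate does not hold for them. Il1a was 21.11 CPM in KO PSC library 24 (clone A3 with T12-LOH), above the other 7 KO libraries. Il1rn was 119.1 CPM in KO PSC library 28 (clone D4), and Tnfaip3 was 599.6 CPM in KO PSC library 19 (clone B4 with T69A). Nfkbia was 295.9 CPM in WT PSC library 26 (PSC5 Rosa), below the other 3 WT libraries.

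The KO clones B4 and A3 of PSC4 differed in 3 members by edgeR, on the log2 scale. Il1a had -1.337 and Il1rn -2.965 in B4 relative to A3, and Birc3 had 0.574. In that comparison 45.2% of all genes were called.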

How the results depend on the processing

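No paired analysis was possible because the library numbers in the labels are not shared between groups, where pairing means a block by replicate number. Pairing by line names was part of the fits (culture between fractions, co-culture for KO against WT). In KO against WT PSCs, DESeq2 called 1 member where edgeR called 0. Over all genes edgeR called 9, against 586 by DESeq2, 23 with no filter, 4 with co-culture left out of the model, and 0 without the T69A cultures, with the PSC line as a random term or with counts summed per line, and 0 to 51 when 1 library was left out (0 without 20, 21 or 23, 51 without 26). In organoids with KO or WT PSCs, 3 members were called, 1 without T69A, 0 with co-culture left out and 0 to 4 without 1 library. Over all genes 1441 were called, 445 without T69A, 0 with co-culture left out and 214 (without 14) to 1910 (without 6) in turn. Between T69A and T6-LOH organoids 6 members were called, and 3 to 7 without 1 library. DESeq2 called 2 members for PSCs with T12-LOH (edgeR 0, and 0 to 1 without 1 library), 1 for PSCs with T69A, 1 for PSC5 against PSC4 PSCs and 2 for T6-LOH organoids by PSC parent, where edgeR called 0. The DESeq2 counts over all genes in these comparisons are not given here. These member counts therefore have no background beside them and are not read as a result about the members. Clones B4 and A3 differed in 3 members, and in 1 to 3 without 1 library.

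Signs turned only for members near 0 or with wide error. For KO PSCs, Il1a (log2 -0.30) was 0.115 with the PSC line random, 0.286 summed per line and -0.588 to 0.059 without 1 library. Relb was 0 by DESeq2, 0.017 without T69A, 0.054 with the line random, 0.091 summed and -0.074 to 0.07 without 1 library. Il1r1 ran from -0.266 to 0.071 and Nfkbia from -0.068 to 0.099 without 1 library, and Nfkb1 in organoids from -0.009 to 0.043. Without the 2 farthest cultures, r with organoid Il1a was 0.634 for Relb and 0.582 for Nfkbia. The cause was not tested. The interactions could not be fitted without library 26 or 14.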
